A study of Homo sapiens with 6 samples.

Results

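Transcripts of 46 genes that encode dioxygenases using iron and 2-oxoglutarate, or close relatives of them, were compared between iron-chelated and control K562 cells. The genes were taken by name from the 62252 genes of GENCODE release 44 to which the quantified transcripts belong, and they fall by role into 17 JmjC histone demethylases, 11 other JmjC proteins, 3 TET enzymes, 9 members of the ALKBH family with FTO, and 6 other oxygenases. K562 is an erythroid leukemia line, and all 6 libraries came from it with no genetic change stated for either group. Cells of 3 libraries were kept overnight with 10 µM 21H7, a membrane-permeable iron chelator (Chelator), and cells of the other 3 were given an equal volume of the solvent (DMSO). Polyadenylated RNA was sequenced, and the p-values measure the spread between these libraries, which the series describes as biological replicates.

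These enzymes hold a ferrous ion in the catalytic center and use oxygen and 2-oxoglutarate to oxidize a substrate, which makes iron, oxygen and a metabolite of the citric acid cycle part of the same reaction. JmjC histone demethylases and the demethylating members of the ALKBH family oxidize a methyl group that then leaves as formaldehyde, whereas TET enzymes oxidize 5-methylcytosine in DNA without removing it directly. Other members hydroxylate proteins, lipids or metabolites, and JARID2 keeps the JmjC fold but lacks catalytic activity. The libraries measured RNA only, and neither the activity of these enzymes nor their marks on histones, DNA or RNA were measured.

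With iron chelation the members moved in both directions and by modest amounts. Of the 46 members, 45 could be tested, and HR, with counts of 0, 0 and 0 in DMSO and 6, 0 and 1 in Chelator, could not. At a Benjamini-Hochberg adjusted p under 0.05 in DESeq2's Wald test, 12 members were higher and 15 lower in Chelator, and 18 did not pass. Across all 24542 genes with an adjusted p, 19.5% were higher and 18.3% lower, and among the 13490 of them whose normalized counts averaged 100 or more the shares were 26.8% and 30.4%. Centred on the mean log2 change instead, 10 members were higher and 23 lower, against 13.5% and 26.0% of all genes. For this centring the shares among those 13490 genes were not computed. With an absolute log2 fold change above 1 also required, KDM3A was called higher and RIOX2 lower, against 10.8% of all genes and 8.94% of those 13490. The median log2 fold change of the members was -0.086, beside 0.016 over all genes, and the median of its absolute value was 0.43 beside 0.45. Over the 13490 genes with higher counts, which include all 45 members tested, these medians were -0.029 and 0.33. In these bulk libraries, less RNA per cell and fewer cells holding a transcript cannot be told apart.

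**Figure D1:**
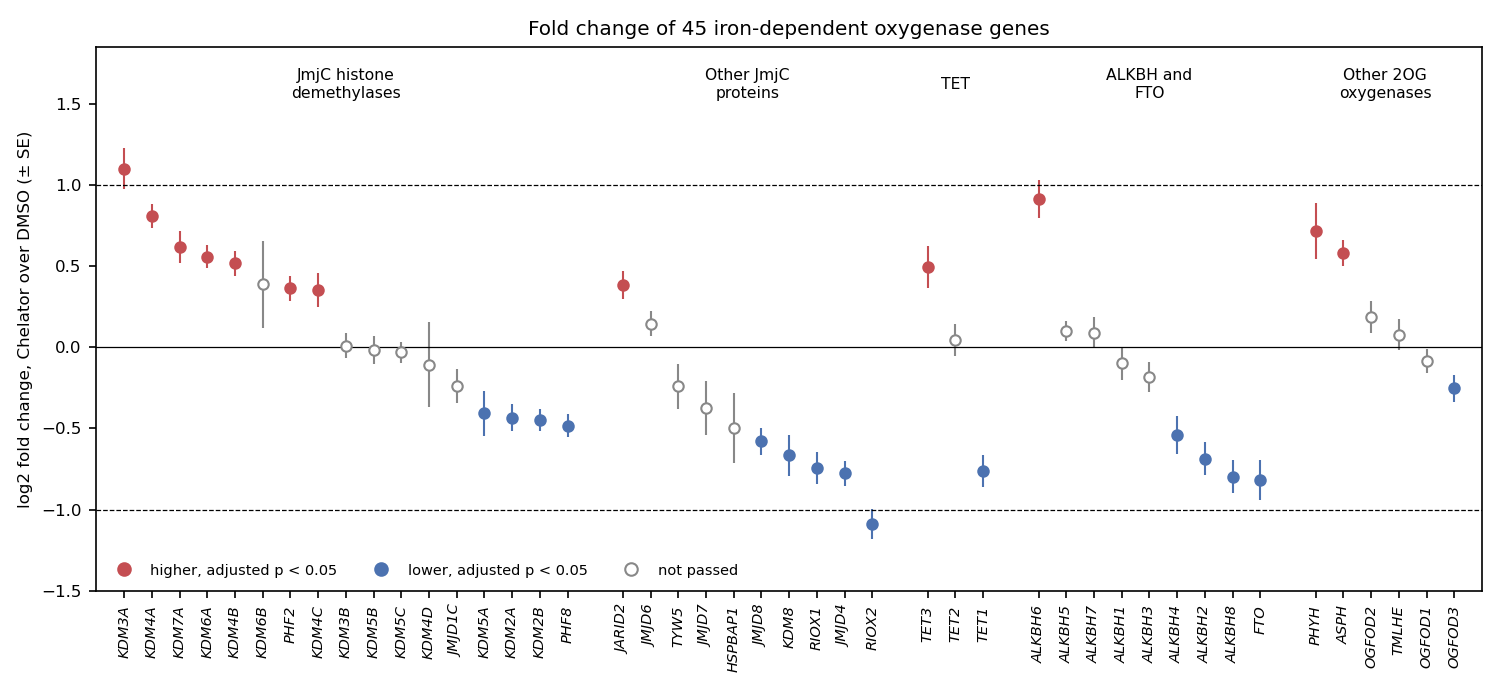
Log2 fold change (Chelator over DMSO, ± SE) of the 45 members tested, ordered within each role group; filled points passed an adjusted p under 0.05 in DESeq2's Wald test and dashed lines mark a log2 fold change of 1 and -1. KDM3A at 1.10 and RIOX2 at -1.09 lie beyond the lines, and the other JmjC proteins sit mostly below 0.

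The libraries were deep, with 90.4, 84.2 and 78.6 M estimated counts in DMSO and 96.4, 101.1 and 85.4 M in Chelator (M, 1000000 counts). The transferrin receptor TFRC, whose mRNA is stabilized in low iron, was higher by 2.89 ± 0.10 (log2, SE), from 227 to 290 TPM (a level scaled for transcript length and library depth) in DMSO to 1814 to 2035 TPM in Chelator. Of 10 erythroid markers, all were detected, with HBG1 at 3662.5 to 4891 TPM over the 6 libraries, and 4 were higher and 4 lower. Of 10 markers of other cell types, MS4A1 and CDH5 were listed at 0 in every library and KRT5 in 5 of 6, while 4 were higher and 2 lower. Their summed level was 86.0 to 89.2 TPM in DMSO and 94.2 to 102 TPM in Chelator, mainly EPCAM and CD3D, and its part in the results was not tested. The mean fragment length was 252 to 264 bases in DMSO and 200 to 218 bases in Chelator, so an effect of fragment length cannot be told apart from the treatment. DMSO replicate 2 gave the highest DMSO level in TPM of 41 of 45 members but the highest DMSO normalized count, the scale of the test, of 15, and without it 12 members were higher and 15 lower.

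Among the 17 JmjC histone demethylases, 7 were higher, 4 were lower and 6 did not pass, with a median log2 fold change of 0.010. Among the 13490 genes with higher counts, 26.8% were higher and 30.4% lower. The rises in this group fell on erasers of several methyl marks. KDM3A removes methyl groups from lysine 9 of histone H3, and it is known as a gene induced in hypoxia. Its level was 16.4, 21.9 and 20.04 TPM in DMSO and 50.9, 40.0 and 36.1 TPM in Chelator. All Chelator values lay above all DMSO values, with Chelator replicate 1 the highest. Expression of KDM3A was 2.14-fold higher (log2 1.10 ± 0.13, DESeq2 adjusted p = 1.21e-16), and without Chelator replicate 1 the log2 fold change was 0.92, which is below the fold threshold.

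KDM4A, a demethylase of trimethylated lysines 9 and 36 of histone H3, stood at 17.5, 19.7 and 17.8 TPM in DMSO and 33.7, 32.8 and 31.9 TPM in Chelator. The Chelator libraries differed little among themselves, and KDM4A was 1.75-fold higher (log2 0.81 ± 0.073, DESeq2 adjusted p = 8.76e-27). An overlapping gene on the same strand that shares 39.3% of the 31-base words of KDM4A was listed at 0 TPM. KDM4B and KDM4C, from the same family, were higher by 0.52 ± 0.077 and 0.35 ± 0.10 (log2), KDM4B from 14.7 to 18.7 TPM in DMSO to 22.8 to 24.9 TPM in Chelator. The KDM4C levels overlapped slightly, with 7.90 to 11.55 TPM in DMSO and 11.47 to 12.2 TPM in Chelator, and without the correction for transcript length KDM4C did not pass (log2 0.14, DESeq2 adjusted p = 0.21). KDM4D was barely expressed, at 0.541 to 0.742 TPM over the 6 libraries.

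KDM7A, which acts on dimethylated lysines 9 and 27 of histone H3, was at 4.11, 6.08 and 4.71 TPM in DMSO and 7.73, 7.54 and 7.83 TPM in Chelator. It was higher by 0.62 ± 0.098 (log2, DESeq2 adjusted p = 2.81e-09), but without the correction for transcript length the value was 0.22 and did not pass (adjusted p = 0.067). In the same libraries, the share of the KDM7A level held by a retained-intron transcript of 624 bases, KDM7A-203, was 0%, 7.26% and 6.83% in DMSO and 18.1%, 26.0% and 30.8% in Chelator. KDM6A, a demethylase of lysine 27 of histone H3, went from 9.12, 10.6 and 9.08 TPM to 14.2, 15.2 and 13.8 TPM and was higher by 0.56 ± 0.073 (adjusted p = 2.40e-13). Its relative KDM6B, which acts on the same mark, did not pass, at 0.39 ± 0.27 (adjusted p = 0.27). Its counts were nevertheless 4148, 4313 and 3629 in DMSO and 8811, 9673 and 7974 in Chelator, and without the correction for transcript length KDM6B was higher by 0.90 (log2, DESeq2 adjusted p = 2.24e-42). DMSO replicate 3 held 9.56 TPM of KDM6B, below the 17.5 and 18.3 TPM of the other DMSO libraries and the 18.7 to 22.2 TPM of the Chelator libraries. PHF2 was higher by 0.36 ± 0.078 but did not pass when centred on the mean log2 change (0.20, DESeq2 adjusted p = 0.051).

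The 4 members that fell in this group were KDM2A, KDM2B, PHF8 and KDM5A. KDM2A and KDM2B bind unmethylated CpG islands and act on lysine 36 of histone H3. KDM2A was at 28.4, 33.7 and 27.1 TPM in DMSO and 24.1, 21.7 and 21.4 TPM in Chelator (log2 -0.43 ± 0.083, DESeq2 adjusted p = 1.18e-06). KDM2B was at 27.8, 32.0 and 28.0 TPM in DMSO and 22.5, 21.7 and 21.3 TPM in Chelator (log2 -0.45 ± 0.071, adjusted p = 2.08e-09). PHF8, a reader of trimethylated lysine 4 that removes methyl groups from lysine 9 of histone H3 and lysine 20 of histone H4, was at 15.2, 17.7 and 14.5 TPM in DMSO and 11.6, 11.6 and 11.2 TPM in Chelator (log2 -0.48 ± 0.072, adjusted p = 2.38e-10). For KDM2A, KDM2B and PHF8 the groups did not overlap.

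The fall of KDM5A, a demethylase of lysine 4 of histone H3, rested on DMSO replicate 2. That library held 21.5 TPM, against 11.7 and 12.2 TPM in the other DMSO libraries and 10.5 to 12.1 TPM in Chelator. The log2 fold change was -0.41 ± 0.14 (DESeq2 adjusted p = 0.012) with all libraries and -0.18 (adjusted p = 0.084) without DMSO replicate 2. The other KDM5 genes measured did not pass, KDM5B at -0.017 ± 0.085 and KDM5C at -0.032 ± 0.063, although KDM5C was the most abundant JmjC histone demethylase mRNA at 74.2 to 90.6 TPM. KDM3B, the closest relative of KDM3A, was at 30.4 to 41.4 TPM in DMSO and 34.8 to 35.5 TPM in Chelator, a log2 difference of 0.010 ± 0.076. JMJD1C, from the same subfamily, was at -0.24 ± 0.11 (adjusted p = 0.063). On this scale of length-corrected levels, KDM3A passed KDM3B in Chelator replicates 1, 2 and 3 and lay below it in all DMSO libraries.

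KDM3A, KDM4B, KDM4C and KDM5B are known as genes that the hypoxia-inducible factor HIF can raise. Of these 4, KDM3A, KDM4B and KDM4C were higher, KDM4C only with the length correction, and KDM5B did not pass. The core letters of the HIF response element are ACGTG or GCGTG. They were searched on both strands of RefSeq promoters of 300 bases, from 250 bases before to 50 bases from a start (build GRCh38.p14), where CACGTG counts once on each strand. The promoters of KDM3A at chr2:86441121-86441420 (plus strand), KDM4B at chr19:4968863-4969162 (plus strand) and KDM3B at chr5:138352435-138352734 (plus strand) are shown because KDM3A and KDM4B passed the test and KDM3B, a close relative of KDM3A, did not (the difference between KDM3A and KDM3B was not itself tested). Capitals mark the motif.
KDM3A: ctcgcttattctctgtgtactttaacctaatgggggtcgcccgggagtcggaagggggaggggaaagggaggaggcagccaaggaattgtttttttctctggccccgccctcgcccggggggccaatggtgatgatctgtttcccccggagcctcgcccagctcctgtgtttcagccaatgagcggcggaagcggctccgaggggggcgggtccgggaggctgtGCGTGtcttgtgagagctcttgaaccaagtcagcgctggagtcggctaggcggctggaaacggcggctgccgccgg
KDM4B: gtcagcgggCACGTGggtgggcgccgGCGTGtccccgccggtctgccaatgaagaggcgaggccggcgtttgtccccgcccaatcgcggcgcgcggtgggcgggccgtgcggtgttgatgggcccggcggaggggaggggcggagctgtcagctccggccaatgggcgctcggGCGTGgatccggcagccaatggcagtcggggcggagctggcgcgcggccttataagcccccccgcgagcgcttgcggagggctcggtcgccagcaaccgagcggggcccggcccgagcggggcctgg
KDM3B: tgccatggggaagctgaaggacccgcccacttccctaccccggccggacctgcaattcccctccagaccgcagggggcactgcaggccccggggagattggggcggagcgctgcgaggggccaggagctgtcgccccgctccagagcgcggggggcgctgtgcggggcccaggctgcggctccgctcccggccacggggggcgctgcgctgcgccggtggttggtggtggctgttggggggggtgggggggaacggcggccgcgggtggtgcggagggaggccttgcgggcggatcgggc
The KDM3A window held 1 GCGTG, 26 bases before the start. The KDM4B window held 4 matches, at 77 to 241 bases before the start, and the KDM3B window held none. Presence of the motif did not follow direction in every member. The windows of KDM5B and HSPBAP1, which did not pass, held 1 and 7 matches, and that of PHF2, which was higher, held 0. Such letters are common. Of 35116 promoters in the table, 48.4% held a match, and of 60 promoters of 41 members 41 (68.3%) did. The promoters of members held 64.3% G or C on average, against 57.5% over the table, and among promoters with at least 60% G or C the shares were 64.9% of all and 78.6% of members. The motif was in 13 of 15 promoters of members that were higher, 13 of 21 of those that were lower and 15 of 24 of those that did not pass, and these promoters held 70.9%, 62.5% and 61.7% G or C on average. Every window was counted, although overlapping windows of KDM3A hold the same match, as do those of ALKBH6 and of OGFOD1. These shares describe letters and not binding.

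**Figure D2:**
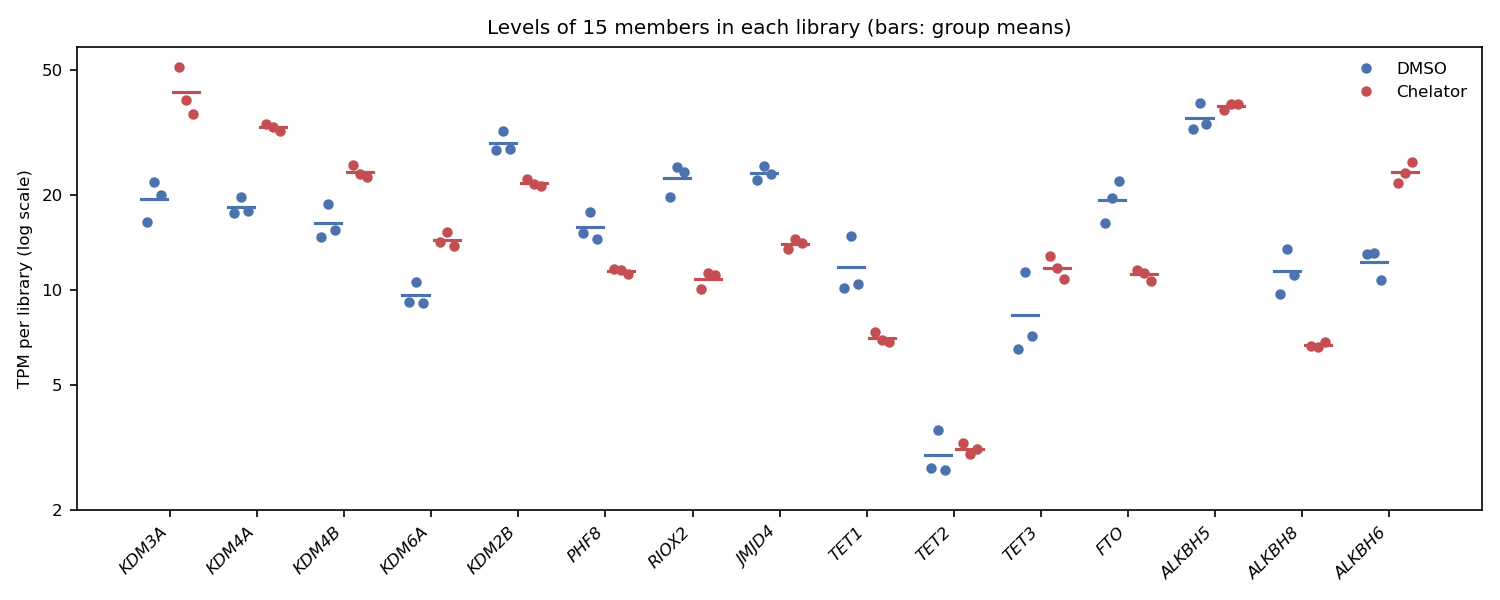
TPM in each library (points, log axis) and group mean (bars) for 15 members, DMSO in blue and Chelator in red. KDM3A, KDM4A, KDM4B, KDM6A and ALKBH6 lie higher in all Chelator libraries, RIOX2, JMJD4, TET1, FTO and ALKBH8 lie lower, and the points of TET2, TET3 and ALKBH5 overlap between the groups on this scale.

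Of the 11 other JmjC proteins 10 were tested, and 5 were lower, 1 was higher and 4 did not pass, beside 30.4% lower and 26.8% higher among the 13490 genes with higher counts. The median log2 fold change was -0.54, and its difference from other genes was not tested. RIOX2 (chr3:97941818-97972457, minus strand) and RIOX1 are nucleolar ribosomal oxygenases, which hydroxylate histidines of ribosomal proteins. RIOX2 was at 19.7, 24.5 and 23.7 TPM in DMSO and 10.0, 11.3 and 11.2 TPM in Chelator. The groups were far apart, and expression in Chelator was 0.470 times that in DMSO (log2 -1.09 ± 0.093, DESeq2 adjusted p = 3.44e-30). Its exons overlap CRYBG3 on the opposite strand, which was at 0.131 TPM on average.

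RIOX1 was at 8.59, 10.4 and 10.1 TPM in DMSO and 5.54, 6.06 and 6.15 TPM in Chelator (log2 -0.74 ± 0.10, DESeq2 adjusted p = 1.27e-12). JMJD4, a lysyl hydroxylase of the translation termination factor eRF1, was at 22.4, 24.8 and 23.3 TPM in DMSO and 13.5, 14.5 and 14.0 TPM in Chelator (log2 -0.78 ± 0.077, adjusted p = 4.00e-22). The groups were apart in both genes. JMJD4 shares 50.9% of its 31-base words with SNAP47 on the opposite strand, and whether reads were counted by strand was not given in the sources used here. SNAP47 was at -0.29 ± 0.082. KDM8 and JMJD8 were lower, at -0.67 ± 0.13 and -0.58 ± 0.081. JMJD8 shares 31.7% of its 31-base words with STUB1 on the opposite strand, which was itself lower, at -0.67 ± 0.076, so the values of these neighbors cannot be told apart fully.

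JARID2, the JmjC protein that recruits Polycomb repressive complex 2, was the only tested member of this group that rose. It was at 17.8, 22.8 and 19.0 TPM in DMSO and 28.2, 24.9 and 25.6 TPM in Chelator (log2 0.38 ± 0.084, DESeq2 adjusted p = 2.98e-05). JMJD6, HSPBAP1, TYW5 and JMJD7 did not pass, with log2 values from -0.50 to 0.15. JMJD7 shares 76.9% of its 31-base words with the readthrough gene JMJD7-PLA2G4B, and its value of -0.37 ± 0.17 is therefore uncertain.

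The 3 TET genes, which start the oxidation of 5-methylcytosine, went in different directions. TET1 (chr10:68560337-68694487, plus strand) was at 10.1, 14.8 and 10.4 TPM in DMSO and 7.33, 6.90 and 6.80 TPM in Chelator. All DMSO values were above all Chelator values, and TET1 was lower, at -0.76 ± 0.098 (log2, DESeq2 adjusted p = 1.06e-13). Without DMSO replicate 2, its highest library, the value was -0.66. TET2 was at 2.72, 3.59 and 2.68 TPM in DMSO and 3.26, 3.01 and 3.12 TPM in Chelator, a log2 difference of 0.046 ± 0.099 (adjusted p = 0.77). TET3 (chr2:73984910-74108176, plus strand) was at 6.47, 11.4 and 7.13 TPM in DMSO and 12.8, 11.7 and 10.8 TPM in Chelator. The TPM values overlapped through DMSO replicate 2, and TET3 was higher by 0.49 ± 0.13 (log2, adjusted p = 0.00061), or 0.68 without that library. Under limma on log2(TPM + 0.1) and log2(TPM + 1) TET3 was at 0.53 and 0.49 and did not pass (adjusted p = 0.090 and 0.11). TET1 and TET3 thus had opposite signs in the same libraries, while their summed level with TET2 was 19.3 to 29.8 TPM in DMSO and 20.7 to 23.4 TPM in Chelator.

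TET3 also changed in the transcripts it was read from. Its long transcript TET3-202, of 12060 bases, held 98.0%, 95.1% and 96.5% of the TET3 level in DMSO and 83.4%, 79.8% and 82.4% in Chelator. TET3-201, of 5174 bases, starts in the intron before the third exon of TET3-202, at base 74002713 of chromosome 2, and ends earlier. It held 1.96%, 4.32% and 3.48% in DMSO and 15.9%, 19.1% and 17.2% in Chelator, with 55, 178 and 94 counts against 921, 1096 and 777. The groups did not overlap for either share (edgeR diffSpliceDGE, Simes test, adjusted p = 0.0087 for the gene). Without Chelator replicate 2 or Chelator replicate 3, TET3 was not called for usage. Of the transcripts themselves, TET3-201 passed (edgeR diffSpliceDGE, adjusted p = 0.017) and TET3-202 did not (adjusted p = 1). Because these transcripts differ at both ends, the counts do not say which end the reads that set them apart came from. The promoter windows at the starts of TET3-202 (chr2:73984660-73984959) and TET3-201 (chr2:74002442-74002741), both on the plus strand, are printed with that of TET1 (chr10:68560087-68560386, plus strand), since TET3 rose and shifted towards TET3-201 whereas TET1 fell.
TET3, start of TET3-202: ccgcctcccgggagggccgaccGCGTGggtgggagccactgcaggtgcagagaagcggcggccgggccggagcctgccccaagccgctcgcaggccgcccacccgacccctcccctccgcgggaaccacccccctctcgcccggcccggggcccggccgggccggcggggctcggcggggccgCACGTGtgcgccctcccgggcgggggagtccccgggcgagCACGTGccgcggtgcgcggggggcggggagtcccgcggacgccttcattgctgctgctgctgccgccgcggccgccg
TET3, window holding the start of TET3-201: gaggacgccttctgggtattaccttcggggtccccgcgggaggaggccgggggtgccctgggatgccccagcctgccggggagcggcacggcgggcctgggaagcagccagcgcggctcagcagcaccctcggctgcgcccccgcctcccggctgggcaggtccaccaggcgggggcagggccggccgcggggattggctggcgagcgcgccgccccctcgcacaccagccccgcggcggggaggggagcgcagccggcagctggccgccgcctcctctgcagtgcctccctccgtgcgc
TET1: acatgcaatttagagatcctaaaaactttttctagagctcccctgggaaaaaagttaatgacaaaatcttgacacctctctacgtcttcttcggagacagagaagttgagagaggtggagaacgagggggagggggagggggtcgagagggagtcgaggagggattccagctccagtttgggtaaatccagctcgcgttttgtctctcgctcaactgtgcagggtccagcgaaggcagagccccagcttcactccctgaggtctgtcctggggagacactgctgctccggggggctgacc
The first TET3 window held 5 matches to ACGTG or GCGTG, 4 of them from 2 copies of CACGTG, and neither the other TET3 window nor this TET1 window held any. The TET1 windows not printed, at chr10:68600018-68600317 and chr10:68600224-68600523, held 1 and 0. The TET2 windows, at chr4:105145625-105145924 and chr4:105146626-105146925, held 2 and 1, and TET2 did not pass.

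The ALKBH family with FTO includes enzymes that act on methylated bases of DNA and RNA. Of 9 genes, 4 were lower, 1 was higher and 4 did not pass, with a median log2 fold change of -0.18. Among the 13490 genes with higher counts, 30.4% were lower and 26.8% higher. FTO and ALKBH5 are the erasers of N6-methyladenosine (m6A) in mRNA. FTO (chr16:53701692-54158512, plus strand) was at 16.3, 19.5 and 22.1 TPM in DMSO and 11.6, 11.3 and 10.6 TPM in Chelator. The groups were apart, and FTO was lower, at -0.82 ± 0.12 (log2, DESeq2 adjusted p = 4.25e-10). ALKBH5 was at 32.5, 39.2 and 33.5 TPM in DMSO and 37.2, 38.8 and 38.8 TPM in Chelator, a log2 difference of 0.10 ± 0.062 that did not pass (adjusted p = 0.21). In TPM, ALKBH5 exceeded FTO in every library.

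ALKBH8, which modifies the wobble uridine of tRNA, was at 9.70, 13.4 and 11.2 TPM in DMSO and 6.62, 6.57 and 6.82 TPM in Chelator (log2 -0.80 ± 0.10, DESeq2 adjusted p = 2.82e-14). ALKBH2, which repairs alkylated DNA, was at 33.2, 33.9 and 31.6 TPM in DMSO and 18.9, 23.4 and 20.5 TPM in Chelator (log2 -0.69 ± 0.10, adjusted p = 5.09e-10). Neither gene overlapped between the groups. ALKBH4 was lower, at -0.54 ± 0.11, with 29.7% of its 31-base words shared with other genes, mostly ORAI2 on the opposite strand. ALKBH1, ALKBH3 and ALKBH7 did not pass, with log2 values from -0.18 to 0.090.

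ALKBH6 was the member of this family that was higher. It was at 13.0, 13.1 and 10.7 TPM in DMSO and 21.9, 23.5 and 25.4 TPM in Chelator (log2 0.91 ± 0.12, DESeq2 adjusted p = 4.31e-14). The rise lay mainly outside its annotated coding transcripts. ALKBH6-202, the main coding transcript, held 49.5%, 52.2% and 49.0% of the ALKBH6 level in DMSO and 22.4%, 18.3% and 21.2% in Chelator. A retained-intron transcript of 556 bases, ALKBH6-206, was listed at 0% in every DMSO library and held 18.8%, 23.8% and 18.1% in Chelator, with 122, 183 and 130 counts. It entered the usage test only through the Chelator libraries and so had to differ, and its values are given as a description with no p. ALKBH6-202 did not pass by itself (edgeR diffSpliceDGE, adjusted p = 0.59). Counted over transcripts annotated as protein coding only, the log2 fold change was 0.11 (DESeq2 adjusted p = 0.50). An overlapping noncoding gene on the same strand shares 22.1% of the 31-base words of ALKBH6 and was at 0.783 TPM on average.

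**Figure D3:**
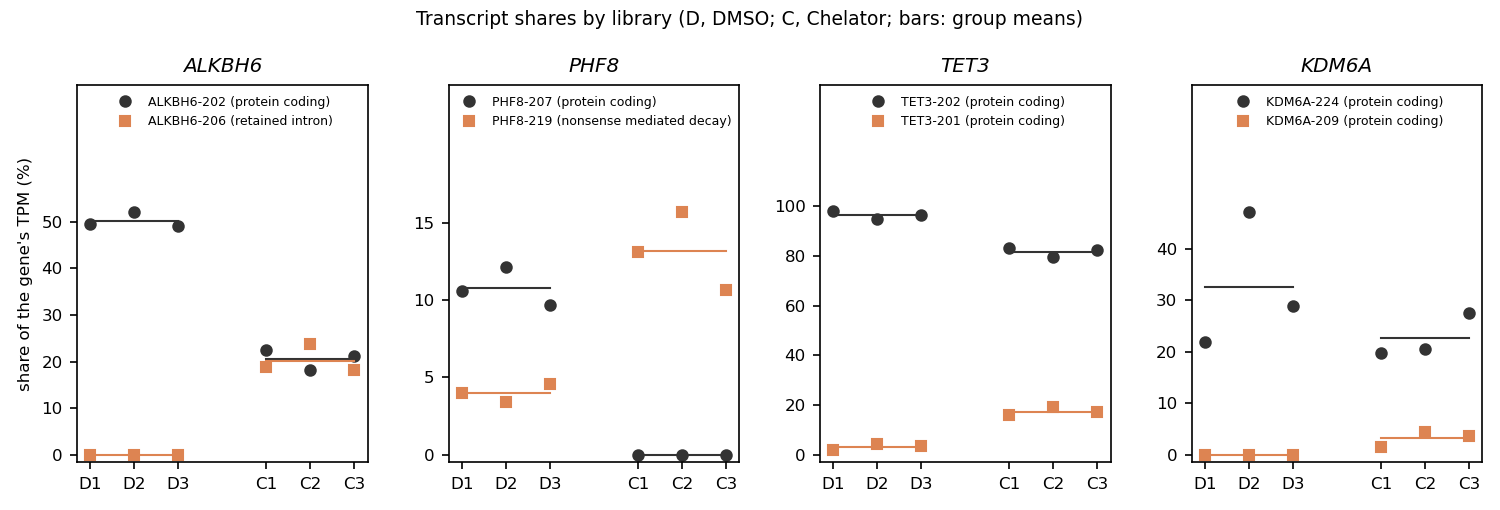
Share of the gene's TPM (percent) held by selected transcripts of ALKBH6, PHF8, TET3 and KDM6A in each library, with bars at group means. ALKBH6-206 and TET3-201 are higher in all Chelator libraries, PHF8-207 is at 0 in all of them, and the points of KDM6A-224 overlap between the groups.

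Transcript usage was tested for 41 members and called in 4 (ALKBH6, PHF8, TET3 and KDM6A) against 9.22% of 11938 genes tested. With limma's diffSplice, 14 members were called against 26.7% of the same number of genes, and of the 4 only PHF8 and TET3 were among them. A transcript had to reach 10 counts in 3 libraries to be tested. The calls of ALKBH6, PHF8 and KDM6A rested on a transcript listed at 0 in every library of one group, which met that limit only through the other group, so these calls are no support for a change of usage. TET3-201 and TET3-202 had more than 10 counts in all 6 libraries. In PHF8, the short coding transcript PHF8-207 of 687 bases held 10.6%, 12.1% and 9.71% of the level in DMSO and was listed at 0% in every Chelator library. PHF8-219, annotated for nonsense-mediated decay, held 4.01%, 3.42% and 4.59% in DMSO and 13.1%, 15.7% and 10.7% in Chelator, with counts in all 6 libraries (edgeR diffSpliceDGE, adjusted p = 0.028 for this transcript). In KDM6A the transcript with the lowest p, KDM6A-209, was listed at 0% in DMSO and held 1.59%, 4.43% and 3.59% in Chelator. The KDM6A transcript with the largest change of share, KDM6A-224, held 21.8%, 47.3% and 28.9% in DMSO and 19.8%, 20.6% and 27.5% in Chelator, where the groups overlap. ALKBH6 and KDM6A were lost without any Chelator library and PHF8 without any DMSO library, where ALKBH6-206 and PHF8-207 no longer entered the test. Without Chelator replicate 2 or Chelator replicate 3, PHF8 alone was called, so TET3 was lost as well.

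The share of a gene's level that lay in protein-coding transcripts had group means of 94.0% in DMSO and 80.7% in Chelator in PHF8. The other genes of this paragraph were not called for usage, and these examples were chosen after their values were seen. The means were 93.3% and 74.6% in KDM7A, 69.2% and 50.9% in ALKBH1, 64.7% and 84.1% in ALKBH3, 62.5% and 82.9% in JMJD7, and 70.2% and 80.4% in KDM5C. For KDM6B the share was 39.8%, 47.9% and 73.4% in DMSO and 64.5%, 78.0% and 73.3% in Chelator, where the groups overlap through DMSO replicate 3. Over coding transcripts only, KDM6B was higher by 0.95 (log2, DESeq2 adjusted p = 4.49e-52), KDM5C by 0.22 (adjusted p = 1.17e-06) and ALKBH3 by 0.26 (adjusted p = 0.0087), and FTO, at -1.07, passed the fold threshold. On the same count ALKBH1 was lower, at -0.49 (DESeq2 adjusted p = 0.00031), as were TYW5 at -0.68 (adjusted p = 0.0063) and OGFOD1 at -0.38 (adjusted p = 3.26e-05), and none of these 3 passed over all transcripts. Shares of short transcripts depend on salmon's assignment of shared reads.

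The 6 other oxygenases act outside methyl marks. PHYH, the peroxisomal enzyme of phytanic acid breakdown, was at 3.71, 3.62 and 3.69 TPM in DMSO and 5.86, 5.69 and 7.01 TPM in Chelator (log2 0.72 ± 0.17, DESeq2 adjusted p = 0.00016). ASPH, a hydroxylase of aspartate and asparagine residues in EGF-like domains, was at 19.1, 22.4 and 20.4 TPM in DMSO and 33.1, 30.99 and 30.4 TPM in Chelator (log2 0.58 ± 0.080, adjusted p = 4.00e-12). Both genes were higher in every Chelator library. OGFOD3 was at 34.1, 37.8 and 35.2 TPM in DMSO and 32.4, 29.4 and 29.8 TPM in Chelator, a small fall (log2 -0.25 ± 0.085, adjusted p = 0.0097). It stayed at -0.23, -0.21 and -0.23 but did not pass without DMSO replicate 3 (adjusted p = 0.062), Chelator replicate 2 (0.070) or Chelator replicate 3 (0.063). OGFOD1, a prolyl hydroxylase of ribosomal protein uS12, had the highest level of all members when all transcripts were summed, at 114 to 127 TPM over the 6 libraries, and did not pass (log2 -0.086 ± 0.074). On average 22.9% of that level in DMSO and 17.9% in Chelator lay in its protein-coding transcripts. OGFOD2 and TMLHE, the first enzyme of carnitine synthesis, did not pass either, at 0.19 ± 0.10 and 0.078 ± 0.098. OGFOD2 shares 68.5% of its 31-base words with other genes.

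The other genes of the same marks and of the shared cofactor were counted in 7 lists. Of 99 genes tested, 21 were higher and 41 lower, and 5 were called higher and 1 lower with the fold threshold. Among the 13490 genes with higher counts, 26.8% were higher, 30.4% lower and 8.94% called. Over all genes tested these shares were 19.5%, 18.3% and 10.8%, and no difference from them was tested. KDM1A and KDM1B, histone demethylases that use flavin and no iron, were lower, at -0.55 ± 0.075 and -0.57 ± 0.083 (log2). KDM1A was at 125, 150 and 135 TPM in DMSO and 99.7, 91.1 and 94.5 TPM in Chelator. Of 29 histone methyltransferases 5 were higher and 12 lower (median log2 -0.14), with SMYD3 called higher at 1.39 ± 0.082 and NSD1, a methyltransferase of lysine 36, called lower at -1.13 ± 0.10. Of 9 partners in Polycomb repressive complex 2, 2 were higher and 4 lower, and of 10 genes of DNA methylation 2 were higher and 4 lower.

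Of 17 writers and readers of m6A, 10 were lower and 2 higher (median log2 -0.37), beside 30.4% and 26.8% of the 13490 genes with higher counts. Among 17 genes of 2-oxoglutarate metabolism, 4 were higher and 6 lower, and IDH2, which makes 2-oxoglutarate in mitochondria, was called higher at 1.31 ± 0.075. It was at 34.3, 41.3 and 35.1 TPM in DMSO and 93.6, 88.2 and 96.3 TPM in Chelator, with no overlap. Of 15 other 2-oxoglutarate hydroxylases tested, 6 were higher and 3 lower. P4HA1, a catalytic subunit of collagen prolyl hydroxylase, was called higher at 1.54 ± 0.086, as were P4HTM at 2.36 ± 0.57 and PHYHD1 at 1.32 ± 0.45, both below 0.6 TPM in every library. Summed over each role group, the histone demethylases gave 339 to 430 TPM in DMSO and 394 to 427 TPM in Chelator, and the other JmjC proteins 156 to 183 TPM against 130 to 137 TPM.

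**Figure D4:**
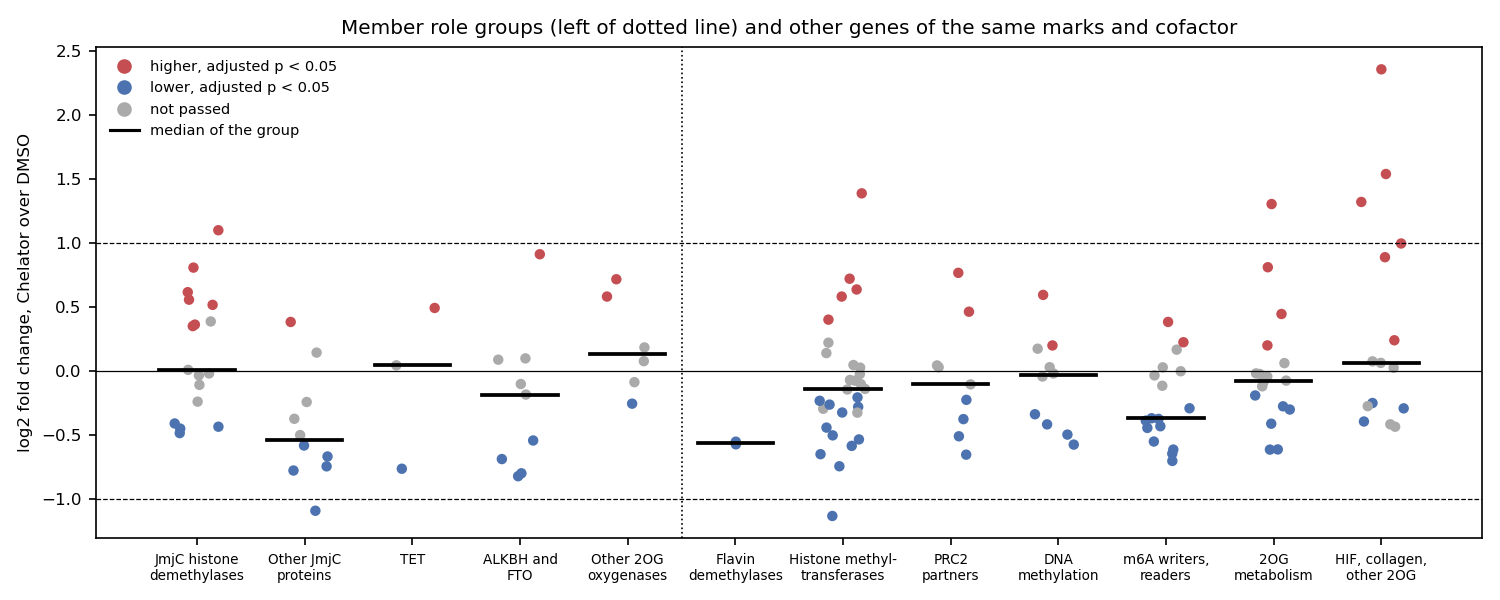
Log2 fold change (Chelator over DMSO) of each tested gene in the 5 role groups of members (left of the dotted line) and in 7 lists of other genes, with black bars at the group medians and dashed lines at 1 and -1. The other JmjC proteins, with a median of -0.54, and the m6A writers and readers, with -0.37, lie mostly below 0, and the JmjC histone demethylases spread from -0.48 to 1.10.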

How the data were processed

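The authors quantified paired-end reads with salmon (version 1.10.2 in the submitters' processing notes), and the deposited files hold, for 252045 transcripts in each of 6 libraries, an estimated count, often fractional, and a TPM, which the authors' run scaled to a fixed sum per library. The transcript annotation, strand setting and bias correction were not given in the sources used here. Effective transcript lengths, deposited in bases, gave the length offset. Identifiers were looked up in GENCODE release 44 (GRCh38): 251142 had the same version, 470 another version, and 433 no match. Unmatched transcripts held 0.139% to 0.150% of the counts and were left out.

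Counts were summed per gene, rounded and tested over all genes with a total above 10 by DESeq2 1.42.0 (Wald test, median-ratio size factors, average transcript length as offset). DESeq2, its Wald test, the limit on counts and the thresholds for calls follow the study's methods, and the gene sums, rounding, size factors and offset were chosen here. A gene passed at a Benjamini-Hochberg adjusted p under 0.05 and was called with an absolute log2 fold change above 1 as well. Errors of fold changes are standard errors, and TPM are as deposited. Transcript usage was tested with edgeR 4.0.16 (diffSpliceDGE) over transcripts that reached 10 counts in 3 or more libraries, and called with a share change above 5 percentage points. Shared sequence was counted as words of 31 bases over annotated transcripts. Promoters are from RefSeq, with entries for 41 members, and no entry was used for RIOX1, ASPH, HR, RIOX2 and JMJD6. Both tests were tested on simulated data first.

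The members and gene lists were chosen with earlier results of these data known, so no p was computed over a list. Values per library are given for members called, for the 3 largest rises and falls of each role group among those that passed, for the TET genes, FTO and ALKBH5, and for members called for usage whose normalized counts averaged 500 or more. In other lists, genes called (at most 3 a list and direction), KDM1A and KDM1B are named. Alternatives were TMM size factors, edgeR's quasi-likelihood test, limma 3.58.1 on log2(TPM + 0.1) and log2(TPM + 1), other filters, no length offset, another centring, a test against the fold threshold, coding transcripts only, a replicate block and leaving out each library.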

Additional observations from a re-analysis of the deposited data

How the results depend on the processing

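No member that passed the test changed sign under any alternative: over those members and alternatives 411 values stayed on their side of the threshold and 48 missed it. The test against an absolute log2 fold change of 1 left 0 members higher, 0 lower and 0 called, and 3 higher and 0 lower in the other lists. Over all genes it called 674, limma on log2(TPM + 1) called 797 and the DESeq2 test 2646. Centring on the mean log2 change moved the median of all genes from 0.016 to -0.15 and the higher share of calls from 75.9% to 60.1%. It left 10 members higher, 23 lower and 1 called (RIOX2, with KDM3A at 0.93), and limma on log2(TPM + 1) also left 1 called. Leaving out single libraries gave 12 to 12 members higher, 13 to 16 lower and 1 to 3 called, since KDM3A missed the fold threshold without Chelator replicate 1 (0.92) and ALKBH6 reached it without DMSO replicate 1 (1.01). KDM5A did not pass under edgeR (adjusted p = 0.087), without a filter (0.15) or under limma (0.29 and 0.32). It also did not pass without DMSO replicate 2 (0.084) or any single Chelator library (0.12 to 0.27). TET3 did not pass under limma (0.090 and 0.11). KDM4C and KDM7A did not pass without the length offset (0.14 and 0.22 in log2). KDM4C also did not pass centred (adjusted p = 0.16) or under limma (0.092 and 0.11), nor did PHF2 centred (0.051). On coding transcripts OGFOD3 (0.13) and ALKBH6 (log2 0.11, DESeq2 adjusted p = 0.50) did not pass. OGFOD3 also did not pass without DMSO replicate 3 or Chelator replicates 2 or 3 (0.062 to 0.070). The cause was not tested.

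Median log2 fold changes of the role groups moved as follows. For the other JmjC proteins the median was -0.50 under TMM, edgeR, no filter and limma with 0.1 added, -0.41 under limma with 1 added, -0.71 centred, -0.48 on coding transcripts and -0.59 to -0.48 leaving out libraries. The histone demethylases gave 0.14 with no offset, -0.16 centred, 0.22 on coding transcripts and -0.0098 to 0.072 leaving out libraries. TET gave -0.12 centred and -0.0037 to 0.10 leaving out libraries. The ALKBH and FTO group gave -0.25 with no offset, -0.35 centred, -0.49 on coding transcripts and -0.25 to -0.15 leaving out libraries, and the other oxygenases -0.036 centred and 0.070 to 0.17 leaving out libraries.

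Signs turned only in members that had not passed. KDM5B was 0.026 and KDM5C 0.012 under both TMM and edgeR, and KDM5B was 0.011 and 0.010 under limma. With no offset KDM3B was -0.087, KDM5C 0.16, JMJD7 0.099, TET2 -0.040 and ALKBH3 0.15. Centred, KDM3B was -0.16, JMJD6 -0.023, TET2 -0.12, ALKBH5 -0.067, ALKBH7 -0.078 and TMLHE -0.090. On coding transcripts KDM3B was -0.080, KDM5C 0.22, JMJD7 0.12 and ALKBH3 0.26. Leaving out libraries gave KDM3B -0.030 to 0.072, KDM4D -0.21 to 0.049, KDM5B -0.090 to 0.033 and TET2 -0.0037 to 0.10. For transcript usage, limma diffSplice called 14 members, against 26.7% of 11938 genes tested, and leaving out libraries gave 1 to 4.

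The replicate numbers did not pair the libraries: the correlation of deviations from the group means was -0.075, 0.13 and 0.10 for numbers 1, 2 and 3, and numbers 2 and 3 correlated best with their own number but DMSO replicate 1 with Chelator replicate 3. With the replicate number as a block, 13 members were higher, 15 lower and 2 called, KDM6B passed (0.43, adjusted p = 0.0065), 4 were called for usage, and 2345 genes were called in all. Counts of the order of 100 for KDM4D and below 7 for HR limit what can be said of them.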
